A study of Mus musculus with 21 samples.

Results

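The forebrains of mice homozygous for human APOE4 were compared with those of mice homozygous for human APOE2 or APOE3, with the tau transgene of the cross as a covariate. The APOE4 mice were taken by their labels, E4H and PE4H, and made up 7 of the 21 mice of the series. The other 14 mice were E2H, E3H, PE2H and PE3H. The comparison asks which genes differ between mice with APOE4 and mice with the other alleles pooled, whether or not the mice carry mutant tau.

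In all 6 groups the mouse Apoe gene is replaced by a human allele by gene targeting. The parental groups, on a C57BL6 background, carried no tau transgene and were killed at 9 to 10 months of age: 3 E2H mice with APOE2, 3 E3H mice with APOE3 and 3 E4H mice with APOE4. The PS19 groups were 4 PE2H, 4 PE3H and 4 PE4H mice with the same alleles, each with 1 copy of a human tau transgene that carries P301S, and lived until their hindlimbs were paralysed. The PS19 line is kept on a mixed B6/C3H background, so the tau transgene, strain background, paralysis and age at death cannot be told apart when PS19 mice are set against parental mice. Since paralysis set the day of death, age can also differ between the PS19 groups. The study reports later paralysis in PS19 mice homozygous for APOE3 than in those homozygous for APOE2 or APOE4. The part of age in differences among the PS19 groups was not tested. Each APOE allele comes with a mouse line of its own, so allele and line cannot be told apart either.

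APOE is the main lipid carrier of the brain, secreted mostly by astrocytes and, when activated, by microglia. The 3 common human alleles differ at a pair of amino acids, and APOE4 is the allele tied to the highest risk of Alzheimer's disease. PS19 mice develop tau tangles, gliosis and loss of neurons with age.

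Poly(A) RNA of the whole forebrain was sequenced, and levels are given as CPM, counts relative to library totals scaled by the trimmed mean of M values (TMM). The total count was 60883889 to 74756427 per APOE4 mouse (median 63751715) and 59265459 to 75932183 per APOE2 or APOE3 mouse (median 65516856). Cerebellar Gabra6 reached at most 0.323 CPM in APOE4 mice and 2.29 CPM in the others, and the pituitary gene Prl at most 6.30 and 4.53 CPM. The choroid plexus gene Ttr was measured in every mouse, at 384 to 1122 CPM in APOE4 mice and 366 to 828 CPM in the others.

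The sex-linked RNAs divided the mice unevenly between the sides compared. Xist, the RNA that silences an X chromosome in female cells, was at 205 CPM or more in 17 mice, in which the Y-linked gene Ddx3y was at 0.341 CPM or less. In the other 4 mice (E4H replicate 3, PE2H replicate 2 and PE4H replicates 1 and 4) Xist was at 2.89 CPM or less and Ddx3y at 43 to 65.3 CPM. These 4 mice are 3 of the 7 APOE4 mice and 1 of the 14 others. Between the sides compared, Ddx3y had a log2 fold change of 4.39 (SE 1.43, edgeR adjusted p = 0.563) and Xist of -0.68 (SE 0.757, edgeR adjusted p = 0.918). Without PE2H replicate 2 the Ddx3y difference passed (7.71, edgeR adjusted p = 6.33e-04). The study's methods call the mice male apart from a few females in these same 3 groups, which is the opposite of what the RNA shows. Counts are therefore also given for the 17 mice with high Xist alone, a subset chosen after seeing the data.

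Few genes were called between APOE4 mice and the other lines pooled, a contrast that does not require a difference from each line. Of 21081 genes tested, 15 (0.0712%) passed an adjusted p under 0.05 with a fold change of at least 2 in edgeR's quasi-likelihood test, 7 higher and 8 lower in APOE4 mice. Without a limit on the fold, 26 genes (0.123%) passed, 11 higher and 15 lower. The balance of directions depended on the fit. With a fold of at least 2, DESeq2 gave 9 higher and 19 lower. With 3 lines in the design, edgeR gave 31 higher and 12 lower. The median log2 fold change over all genes tested was -0.01. An unadjusted p under 0.05 was reached by 1308 genes, or 6.2% of those tested. In 17 genes (0.0806%) the values of the 7 APOE4 mice did not overlap those of the other 14, 7 of them higher and 10 lower, and 15 of these 17 were among the 26. In the 17 mice with high Xist, 15 genes passed without a limit on the fold, 13 of them among the 26. The other 13 calls were lost there: Alkbh6, Gm15726, Anxa4, Arhgap33os, Dnah6, Urgcp, Crb1, Nat8f6, Ttc39a, Col22a1, Pcyox1, Tmem72 and Pon2. That subset holds only 4 of the 7 APOE4 mice, and all 13 kept their direction in it. With Xist as a covariate in all 21 mice, 28 genes passed without a limit on the fold, 24 of them among the 26, and the calls lost were Col22a1 and Pon2 (edgeR adjusted p = 0.117 and 0.180). The p-values measure the spread between individual mice. In fits that pool APOE2 and APOE3 mice, that spread also takes in any difference between these lines. A gene that differs between them therefore needs a larger APOE4 difference to be called. In bulk tissue, fewer cells of a type and less RNA per cell cannot be told apart.

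**Figure D1:**
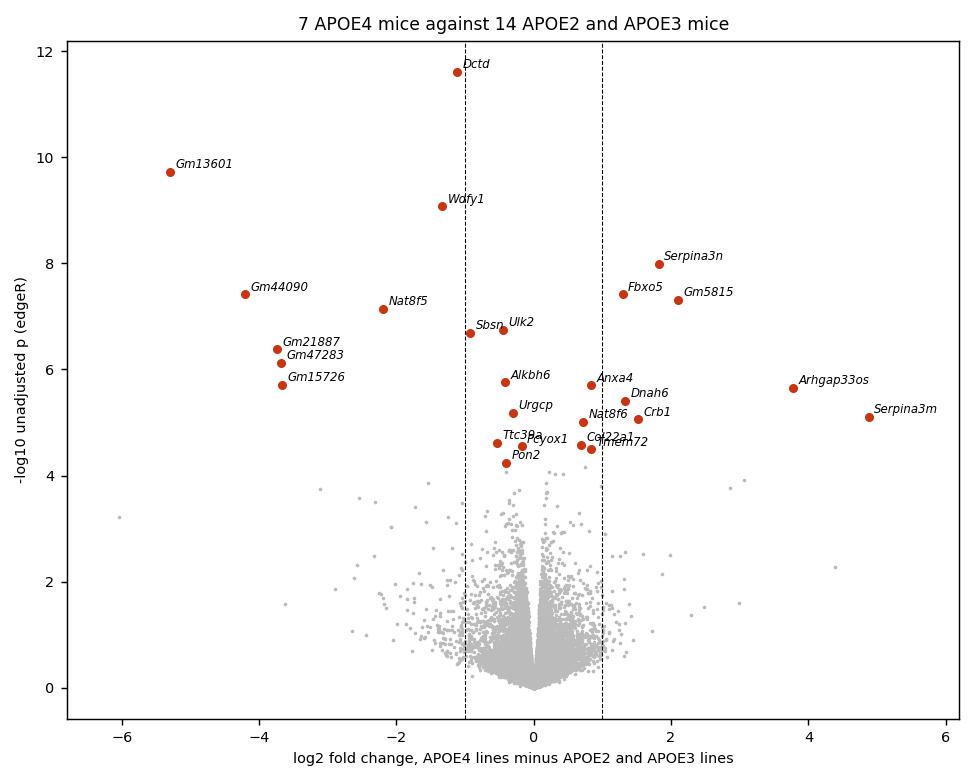
Log2 fold change (x axis, APOE4 lines minus the APOE2 and APOE3 lines, 7 against 14 mice) and -log10 unadjusted p from edgeR (y axis) for the 21081 genes tested. The 26 genes at an adjusted p under 0.05 are red and named, and dashed lines mark a fold change of 2.

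The genes with the smallest p-values were lower in APOE4 mice. Dctd, the dCMP deaminase that supplies dUMP for thymidine synthesis (chr8:48099092-48153233, GRCm38), was at 4.08, 3.92 and 3.47 CPM in E4H mice and 3.33, 3.03, 3.28 and 3.22 CPM in PE4H mice. In the 14 other mice it ranged from 5.49 to 9.52 CPM with a median of 7.49 CPM. Every APOE4 mouse was below every other mouse, and Dctd fell 2.16-fold (log2 fold change -1.11, SE 0.0837, edgeR adjusted p = 5.13e-08). Wdfy1, a FYVE-domain protein of early endosomes (chr1:79702262-79776143), was at 16.1, 18.2 and 16.4 CPM in E4H mice and at 17.8, 33.8, 38.2 and 16.7 CPM in PE4H mice. PE4H replicates 2 and 3 stood about midway between the remaining APOE4 mice and the other lines, which ranged from 47.1 to 64.5 CPM with a median of 56.0 CPM, and no value overlapped. Wdfy1 fell 2.52-fold over all APOE4 mice (log2 fold change -1.33, SE 0.135, edgeR adjusted p = 5.97e-06).

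A low-abundance RNA antisense to Xirp2, Gm13601 (chr2:67491044-67516525), was close to absent in APOE4 mice. It had no count in 4 of the 7 APOE4 mice and at most 9 counts in the others of the 7, where the 14 APOE2 and APOE3 mice had 0.798 to 2.12 CPM with a median of 1.5 CPM. The groups did not overlap, and the log2 fold change was -5.30 (SE 0.495, edgeR adjusted p = 2.00e-06). Its exons share 34.1% of their 50-base windows with Xirp2, and whether the counting used strand is not given in the sources used here, so its reads may in part be those of Xirp2.

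**Figure D2:**
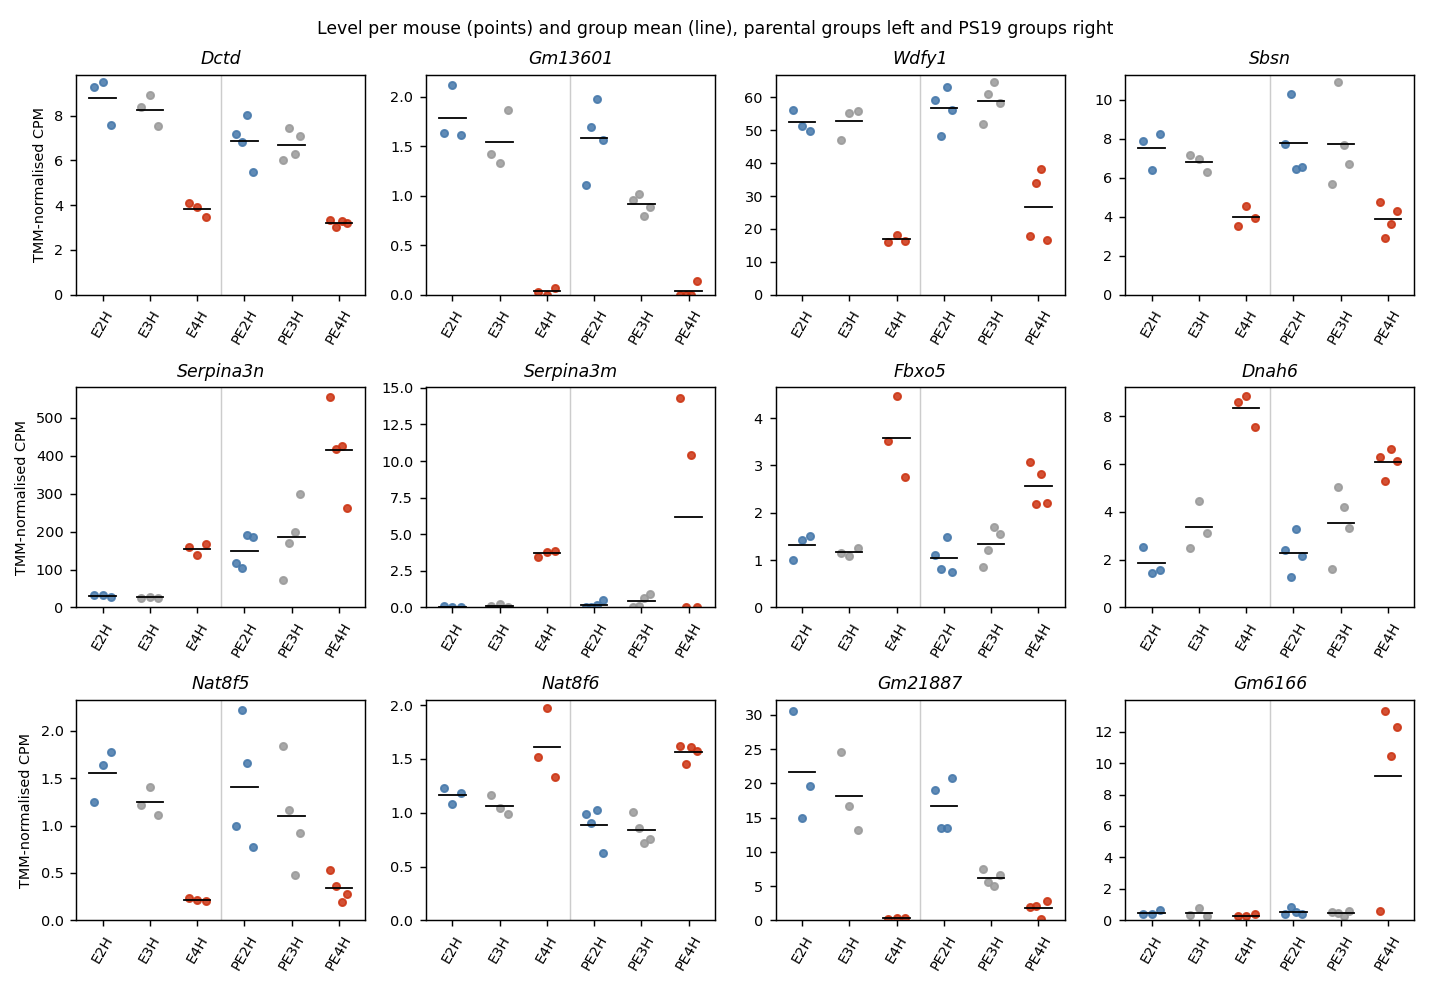
TMM-normalised CPM (y axis) of 12 genes in each of the 21 mice (points, blue APOE2, grey APOE3, red APOE4) with group means (lines), parental groups left of the grey line and PS19 groups right of it. Dctd, Gm13601, Wdfy1 and Sbsn are lower in all 7 APOE4 mice than in all other mice. Serpina3m is raised in every E4H mouse but only some PE4H mice, and Gm6166 is high in only some PE4H mice.

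Serpina3n was the gene with the smallest p among those that rose. It encodes a secreted serine protease inhibitor, a mouse counterpart of human alpha-1-antichymotrypsin and a marker of reactive astrocytes (chr12:104406729-104414329). Serpina3n was at 159, 138 and 169 CPM in E4H mice, against 24.9 to 32.8 CPM (median 28.2) in the 6 E2H and E3H mice. In the PS19 groups it was at 554, 418, 426 and 262 CPM in PE4H mice, against 72.4 to 300 CPM (median 178) in the 8 PE2H and PE3H mice. The parental groups did not overlap, and among the PS19 mice only PE4H replicate 4 lay within the range of the other lines. The rise was 3.53-fold over both backgrounds (log2 fold change 1.82, SE 0.210, edgeR adjusted p = 5.43e-05), 5.39-fold in parental mice (log2 2.43, SE 0.273) and 2.48-fold in PS19 mice (log2 1.31, SE 0.236). Without the tau covariate the log2 fold change was 1.49 and the call was lost (edgeR adjusted p = 0.637), and the PS19 mice of the APOE2 and APOE3 lines were all above the parental mice of those lines. In the 17 mice with high Xist the log2 fold change of Serpina3n was 1.86 and the call was kept.

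Serpina3n is also a member of lists of reactive glia. It was the only one of 13 members of the pan-reactive astrocyte list that passed, where 0.123% of all genes tested did, and Gfap, the list's most abundant gene, had a log2 fold change of 0.21 (SE 0.127, edgeR adjusted p = 0.864). The summed level of that list was 459 to 3579 CPM in APOE4 mice and 326 to 2800 CPM in the others. Among 47 genes induced around amyloid plaques, likewise, only Serpina3n passed, and the median log2 fold change of that list was -0.15 in parental and 0.25 in PS19 mice.

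The neighbouring gene Serpina3m, 68.2 kb away, had an uneven pattern. Here and below, distances between genes are those between their lowest coordinates. It was at 3.47, 3.80 and 3.83 CPM in E4H mice and at 14.3, 0, 10.4 and 0 CPM in PE4H replicates 1 to 4. In the other 14 mice it ranged from 0 to 0.927 CPM with a median of 0.0874 CPM. Thus 5 of the 7 APOE4 mice were above every other mouse and PE4H replicates 2 and 4 had no count. The log2 fold change was 4.88 (SE 0.853, edgeR adjusted p = 0.00857), but the call was lost in DESeq2 (adjusted p = 0.0776). The call was also lost in limma on log2(FPKM + 1) (adjusted p = 0.0864) and on log2(FPKM + 0.1) (adjusted p = 0.1975). In edgeR it was lost without PE4H replicate 1 (adjusted p = 0.0557). The Serpina3 genes are related copies that share part of their sequence: 19.1% of the 50-base windows of Serpina3m and 6.90% of those of Serpina3n occur in other genes, so part of their reads cannot be assigned with certainty. Of 22 serpin genes listed for the cluster, 7 had enough counts to be tested and these 2 passed in edgeR, where 0.123% of all genes did, and 1 passed in DESeq2 and in limma. The promoter window of Serpina3n, from 250 bases before to 50 bases after its start (RefSeq, GRCm38.p6, chr12:104406458-104406757, plus strand), is shown because Serpina3n is the protein-coding gene that rose at the smallest p. It was searched on both strands for TTCNNNGAA, the form bound by STAT factors, TGANTCA, the form bound by AP-1, and TATAAA, which are held by 8.30%, 7.81% and 13.6% of 32851 promoters of the same length. None of the 3 occurs in it.
Serpina3n: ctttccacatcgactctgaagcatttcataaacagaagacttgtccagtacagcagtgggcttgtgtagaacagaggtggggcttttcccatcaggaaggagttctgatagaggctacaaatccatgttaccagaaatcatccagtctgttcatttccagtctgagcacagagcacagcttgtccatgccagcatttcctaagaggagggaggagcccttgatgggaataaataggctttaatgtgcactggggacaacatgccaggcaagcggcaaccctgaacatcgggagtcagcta

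A cell-cycle gene and a pseudogene rose in every APOE4 mouse. Fbxo5 encodes Emi1, an inhibitor of the anaphase-promoting complex (chr10:5799160-5805600). It was at 3.51, 4.46 and 2.76 CPM in E4H mice and 3.07, 2.18, 2.81 and 2.21 CPM in PE4H mice, against 0.742 to 1.71 CPM (median 1.18) in the others. The groups did not overlap (log2 fold change 1.30, SE 0.162, edgeR adjusted p = 1.36e-04). The processed pseudogene Gm5815 on chromosome 17 was at 0.676 to 1.96 CPM in APOE4 mice and 0.124 to 0.515 CPM in the others, again without overlap (log2 fold change 2.10, SE 0.266, edgeR adjusted p = 1.46e-04). Of its 50-base windows, 59.8% occur in Glcci1 or Gm45062, and 8.71% of those of Fbxo5 occur in Glcci1, Gm16042 or Gm45062, so which copy the reads came from is uncertain.

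Of 26 genes called, 8 (30.8%) lie on chromosome 6, which holds 5.10% of the genes tested. Of these, 5 lie within 2 Mb of Nat8f5, a member of a cluster of genes related to the N-acetyltransferase Nat8. Nat8f5 fell and Nat8f6, which overlaps it and whose lowest coordinate is 9.19 kb away, rose. Nat8f5 was at 0.238, 0.212 and 0.202 CPM in E4H mice and 0.534, 0.363, 0.195 and 0.280 CPM in PE4H mice. In the others it ranged from 0.479 to 2.22 CPM with a median of 1.23 CPM, so only PE4H replicate 1 lay within their range (log2 fold change -2.20, SE 0.284, edgeR adjusted p = 1.90e-04). Nat8f6 was at 1.33 to 1.98 CPM in APOE4 mice and 0.624 to 1.23 CPM in the others, without overlap (log2 fold change 0.72, SE 0.127, edgeR adjusted p = 0.00976). The call for Nat8f6, chosen after its values were seen, was lost without E4H replicate 2 (edgeR adjusted p = 0.0519) and in the 17 mice with high Xist (log2 fold change 0.75). The annotation makes these genes overlap on the same strand, and 68.0% of the windows of Nat8f6 and 9.28% of those of Nat8f5 occur in other Nat8f genes, so a shift of reads between copies cannot be told apart from a change of both. Their promoter windows, shown because the pair moved in opposite directions, were searched for the same 3 motifs (RefSeq, GRCm38.p6, minus strand, chr6:85820923-85821222 for Nat8f5 and chr6:85809828-85810127 for Nat8f6). Nat8f5 holds none of them, and Nat8f6 holds 1 TATAAA, read on the opposite strand and in capitals here.
Nat8f5: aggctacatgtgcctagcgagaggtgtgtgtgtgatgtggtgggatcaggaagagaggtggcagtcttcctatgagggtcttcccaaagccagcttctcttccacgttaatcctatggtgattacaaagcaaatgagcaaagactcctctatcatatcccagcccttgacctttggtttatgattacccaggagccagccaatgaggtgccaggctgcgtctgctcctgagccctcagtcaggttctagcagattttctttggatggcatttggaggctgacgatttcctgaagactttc
Nat8f6: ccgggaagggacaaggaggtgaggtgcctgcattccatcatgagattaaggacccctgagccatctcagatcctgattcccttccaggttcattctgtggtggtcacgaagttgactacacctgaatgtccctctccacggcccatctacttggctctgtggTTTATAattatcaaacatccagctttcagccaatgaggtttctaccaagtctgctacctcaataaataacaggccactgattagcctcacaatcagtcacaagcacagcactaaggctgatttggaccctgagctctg

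The other genes of this stretch moved in both directions. Gm44090, a transcript of uncertain status inside Add2 and 223 kb from Nat8f5, had at most 5 counts in any APOE4 mouse and 0.175 to 1.44 CPM in the others, without overlap (log2 fold change -4.20, SE 0.523, edgeR adjusted p = 1.36e-04). Anxa4, a calcium-dependent phospholipid-binding annexin, was at 10 to 10.1 CPM in the 3 E4H mice against 5.15 to 7.17 CPM in E2H and E3H mice, and at 12.8 to 25.5 CPM in PE4H mice against 7.43 to 15.7 CPM in PE2H and PE3H mice. Anxa4 and the next gene were chosen after their values were seen. Anxa4 rose 1.79-fold (log2 0.84, SE 0.134, edgeR adjusted p = 0.00280), though it did not pass without the tau covariate (edgeR adjusted p = 0.297) or in the 17 mice with high Xist (log2 fold change 0.67). Pcyox1, a prenylcysteine oxidase, fell 1.13-fold (log2 -0.18, SE 0.0342, edgeR adjusted p = 0.0248), the smallest fold change among the 26. Its call was lost in 6 of 21 fits without 1 mouse, with an edgeR adjusted p of up to 0.106 without E4H replicate 2, and without a filter on low counts. It was also lost without the tau covariate (edgeR adjusted p = 0.297), in the mice with high Xist (log2 fold change -0.20, edgeR adjusted p = 0.203) and in limma with either offset (adjusted p = 0.102 and 0.107). Within 2 Mb of Nat8f5 on either side, 74 genes were tested, 5 were called and 16 (21.6%) had an unadjusted p under 0.05, where 0.123% and 6.2% of all genes tested did. The window was centred on a called gene, Nat8f5, which is itself among the 5, so an excess of calls follows in part from that choice. The median log2 fold change of the 74 was -0.02, so the genes of the stretch did not shift together. Farther along chromosome 6, Dnah6, a dynein heavy chain of motile cilia, was at 5.31 to 8.83 CPM in APOE4 mice and 1.28 to 5.05 CPM in the others, without overlap (log2 fold change 1.33, SE 0.222, edgeR adjusted p = 0.00484). The Dnah6 call was lost in the 17 mice with high Xist (log2 fold change 1.35, edgeR adjusted p = 0.0770).

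**Figure D3:**
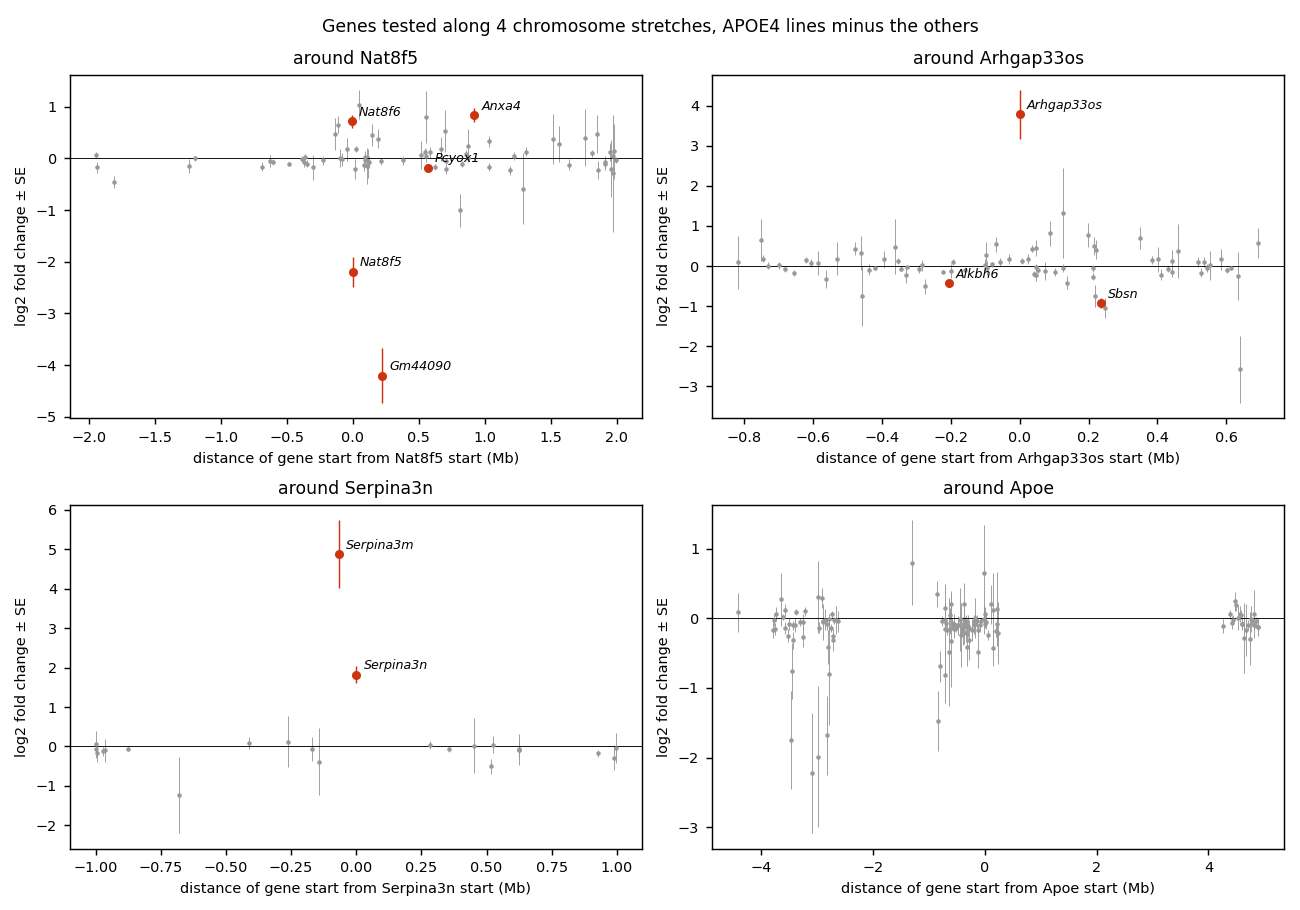
Log2 fold change with its SE (y axis, APOE4 lines minus the others) against the distance of each tested gene's lowest coordinate in Mb (x axis) from that of Nat8f5, Arhgap33os, Serpina3n and Apoe. Genes at an adjusted p under 0.05 are red and named, and around Apoe there are none among 125 genes tested.

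A second stretch lies on chromosome 7, the chromosome of Apoe, but 10.6 to 11.1 Mb from it. Arhgap33os, annotated as an antisense RNA, was at 0.341 to 0.857 CPM in APOE4 mice, and 7 of the 14 other mice had no count of it while the highest had 0.212 CPM. No value overlapped (log2 fold change 3.78, SE 0.607, edgeR adjusted p = 0.00295), but the call was lost in the 17 mice with high Xist (log2 fold change 3.99, edgeR adjusted p = 0.105). Sbsn, which encodes the epithelial protein suprabasin, and Alkbh6, a member of the AlkB family of dioxygenases, lie 236 and 206 kb from it and were chosen after their values were seen. Sbsn was at 2.92 to 4.74 CPM in APOE4 mice against 5.67 to 10.9 CPM in the others, and fell 1.90-fold (log2 -0.92, SE 0.127, edgeR adjusted p = 4.26e-04). Alkbh6 fell 1.34-fold (log2 -0.42, SE 0.0667, edgeR adjusted p = 0.00280), with 17.4 to 20.6 CPM against 22.7 to 34.3 CPM, and its call was lost in the mice with high Xist (log2 fold change -0.45, edgeR adjusted p = 0.0898). Both were lower in all 7 APOE4 mice than in all others. Within 1 Mb of Arhgap33os, 80 genes were tested, 3 were called and 20 (25.0%) had an unadjusted p under 0.05, where 0.123% and 6.2% of all genes tested did. This window too was centred on a called gene, so an excess of calls follows in part from its choice. Without Arhgap33os itself, 2 of 79 neighbours were called and 19 had an unadjusted p under 0.05.

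At the mouse Apoe locus itself, reads assigned to mouse Apoe, whose coding sequence is replaced, were at 11.7 to 16.5 CPM in APOE4 mice and 9.85 to 16.3 CPM in the others (log2 fold change 0.07, SE 0.0961, edgeR adjusted p = 0.941). Within 5 Mb of Apoe, 125 genes were tested and edgeR, DESeq2 and limma called 0 of them, while 17 (13.6%) had an unadjusted p under 0.05 in edgeR. Over all genes tested these shares were 0.123% called and 6.2% at an unadjusted p under 0.05, so no call among 125 genes is close to what that share gives. Among 36 tested genes listed as neighbours of Apoe the median log2 fold change was -0.09, and Bcam, at -0.24 (SE 0.0768), and Pvr, at -0.19 (SE 0.0731), both chosen after their values were seen, were among the 6 with lower values at an unadjusted p under 0.05. Mapt, the mouse tau gene, was at 420 to 505 CPM in APOE4 mice and 424 to 504 CPM in the others (log2 fold change 0.03, SE 0.0406, edgeR adjusted p = 0.934).

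A group of annotated sex chromosome genes was also lower in APOE4 mice. Gm21887 on X was at 0.208, 0.292 and 0.323 CPM in E4H mice, 1.89, 2.04, 0.244 and 2.83 CPM in PE4H mice, and 4.98 to 30.6 CPM (median 14.2) in the others. Its near copy Gm47283 on Y was at 0.447, 0.212 and 0.376 CPM in E4H mice, 3.27, 2.29, 0.260 and 4.04 CPM in PE4H mice, and 6.40 to 37.8 CPM (median 18.4) in the others. Neither overlapped between the sides compared, and PE4H replicate 3 was the PE4H mouse as low as the parental ones. The log2 fold changes were -3.74 (SE 0.539, edgeR adjusted p = 8.08e-04) and -3.69 (SE 0.550, edgeR adjusted p = 0.00131). The copies share 59.7% and 40.5% of their windows with each other, so part of their reads cannot be assigned to X or Y with certainty. Though annotated on Y, Gm47283 did not go with Y-linked RNA. E2H replicate 1 had 37.8 CPM of Gm47283 and 0.0531 CPM of Ddx3y, and E4H replicate 3 had 0.376 and 57.1 CPM. In the 17 mice with high Xist the log2 fold changes were -4.37 for Gm21887 and -4.52 for Gm47283. Gm15726, an RNA antisense to the ubiquitin ligase gene Mid1 and 30.6 kb from Gm21887, had at most 2 counts in any APOE4 mouse and 0.0353 to 0.556 CPM in the others. It was at least 5.87-fold lower in APOE4 mice, taking 3 counts per library as the floor, and its call was lost in the mice with high Xist (edgeR adjusted p = 0.0898). Of the windows of Gm15726, 25.7% occur in Mid1, Gm21742 or Mid1-ps1, so its reads may in part be theirs. In DESeq2 these genes were also called lower in APOE4 mice.

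The remaining calls were of moderate size. Crb1, a cell polarity protein of the Crumbs family, was at 1.17 to 2.77 CPM in APOE4 mice and 0.171 to 1.39 CPM in the others, with a small overlap (log2 fold change 1.52, SE 0.267, edgeR adjusted p = 0.00918). The Crb1 call was lost in the 17 mice with high Xist (log2 fold change 1.48, edgeR adjusted p = 0.105). Tmem72, a membrane protein of the choroid plexus list, was at 6.49 to 12.8 CPM against 3.20 to 7.26 CPM (log2 fold change 0.83, SE 0.162, edgeR adjusted p = 0.0272). It was the only one of 14 choroid plexus genes that passed, where 0.123% of all genes did. The summed level of that list was 893 to 2058 CPM in APOE4 mice and 861 to 1385 CPM in the others, and Ttr, its most abundant gene, had a log2 fold change of 0.08 (SE 0.166). The call for Tmem72 was lost in 7 of 21 fits without 1 mouse, with an adjusted p of up to 0.159 in edgeR without E4H replicate 1. It was also lost in limma with either offset (adjusted p = 0.0743 and 0.127), in edgeR without a filter on low counts (adjusted p = 0.0594) and in the mice with high Xist (log2 fold change 0.97, edgeR adjusted p = 0.0645). A further 5 genes chosen after their values were seen had fold changes under 2. Ulk2, a kinase that starts autophagy, fell 1.36-fold (74.6 to 96.7 against 90.7 to 125 CPM), and Urgcp, a regulator of cell proliferation, fell 1.24-fold (49.6 to 58.1 against 60.3 to 78.0 CPM). Pon2, a lactonase of the paraoxonase family, and Ttc39a had log2 fold changes of -0.40 and -0.54, and Col22a1, a collagen of tissue junctions, of 0.69. For these 5 genes in the order given the edgeR adjusted p was 4.25e-04, 0.00781, 0.0465, 0.0232 and 0.0241. The last 3 calls were lost in 14, 5 and 6 of 21 fits without 1 mouse. Without the tau covariate the calls of Pon2 and Col22a1 were lost (edgeR adjusted p = 0.851 and 0.298). Those of Ttc39a and Col22a1 were lost in limma on log2(FPKM + 0.1) (adjusted p = 0.0502 and 0.0826). Pon2 was also lost in edgeR without a filter on low counts (adjusted p = 0.0662) and with X and Y genes left out (adjusted p = 0.0526). In the mice with high Xist the calls of Urgcp, Pon2, Ttc39a and Col22a1 were lost (edgeR adjusted p = 0.301, 0.406, 0.127 and 0.104), at log2 fold changes of -0.27, -0.38, -0.63 and 0.71.

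Setting APOE4 against each other line separately shows how far the pooled calls rest on both. The comparisons with APOE3 and with APOE2 use the same 7 APOE4 mice, so their values are given side by side and are not independent. Against APOE3, 17 of 21081 genes (0.0806%) were called with a fold of at least 2 and 28 (0.133%) without a limit, and against APOE2, 59 (0.28%) and 160 (0.759%). Leaving out 1 mouse moved the 59 to between 52 and 95 and the 160 to between 103, without E4H replicate 2, and 932, without PE2H replicate 3. Of the 26 genes, 17 passed an adjusted p under 0.05 against APOE3 alone, 25 against APOE2 alone and 16 against both. The log2 fold change of Dctd was -1.08 against APOE3 and -1.14 against APOE2, and that of Wdfy1 -1.35 and -1.32. For Serpina3n they were 1.76 (SE 0.262) and 1.87 (SE 0.261), and for Fbxo5 1.23 (SE 0.197) and 1.37 (SE 0.197). Dnah6 was less even, with 1.02 (SE 0.225, edgeR adjusted p = 0.0876) against APOE3 and 1.74 (SE 0.232, edgeR adjusted p = 9.16e-05) against APOE2. Anxa4, Urgcp, Serpina3m, Crb1, Ttc39a, Pcyox1, Tmem72 and Pon2 did not pass against APOE3 either (edgeR adjusted p = 0.0628 to 0.340). Col22a1 did not pass against APOE2 (edgeR adjusted p = 0.0675). The difference between APOE3 and APOE2 was smallest in p for Dnah6 among the 26, at a log2 of 0.72 (edgeR adjusted p = 0.0684). The pooled fit counts that difference as spread, so the choice of the 26 disfavours genes in which APOE3 and APOE2 differ. Eps8l1, chosen after its values were seen, shows the reverse case: it was higher in APOE4 than in APOE3 mice (log2 fold change 2.35, SE 0.197, edgeR adjusted p = 3.69e-07) but not than in APOE2 mice (-0.04, SE 0.182), and was not called against both pooled (edgeR adjusted p = 0.854).

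**Figure D4:**
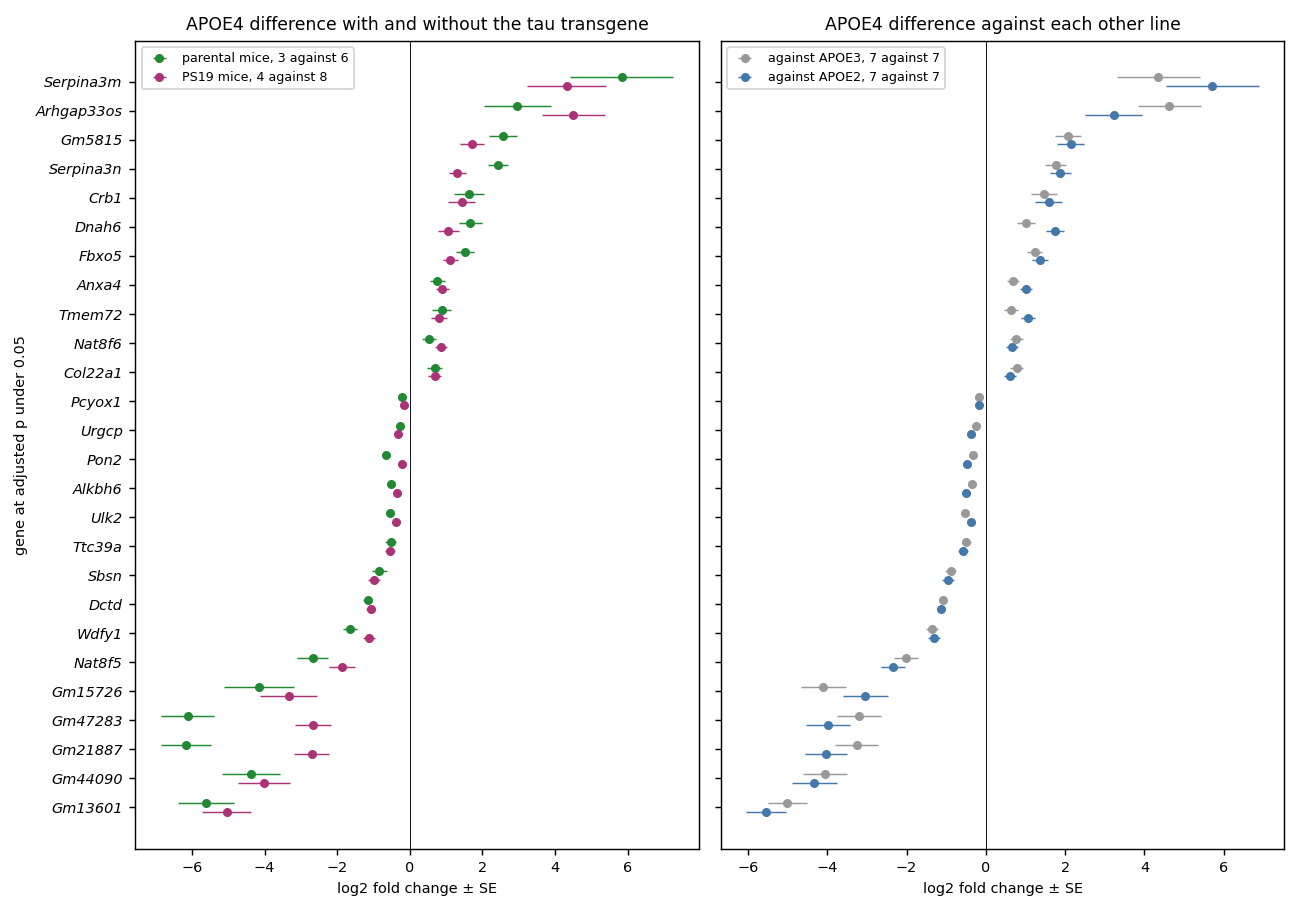
Log2 fold change with its SE (x axis) of the 26 genes at an adjusted p under 0.05, for APOE4 against the other lines in parental and in PS19 mice (left) and for APOE4 against APOE3 and against APOE2 (right). All 26 genes lie on the same side of 0 in both panels, which the choice of genes favours.

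The same contrast was then taken within mice without and with mutant tau. In parental mice, 3 E4H against 6 others, 14 of 22863 genes (0.0612%) were called with a fold of at least 2, 4 higher and 10 lower, and 16 (0.07%) without a limit. Without 1 mouse these counts became 10 to 15 and 10 to 18. In PS19 mice, 4 PE4H against 8 others, 16 genes (0.07%) were called, 9 higher and 7 lower, and 25 (0.109%) without a limit. Leaving out 1 mouse moved the 16 to between 5 and 17 and the 25 to between 5 and 33, and a fit of PS19 mice alone gave 3 for each. The 26 genes of the pooled comparison were chosen in these same mice, so passing here does not repeat their calls independently. Of them, 12 passed in parental mice, 14 in PS19 mice and 10 in both. The interaction of tau with APOE4 tests whether the difference changes between these backgrounds. It was called for 2 genes (0.00875%), Gm6166 and Ms4a4a, neither of them among the 26. For Serpina3n the interaction was -1.12 on the log2 scale (SE 0.373, edgeR adjusted p = 0.921), and for Wdfy1 0.52 (SE 0.238, edgeR adjusted p = 0.921), so a change of their APOE4 difference with tau was not shown. The smallest adjusted p for it among the 26 was that of Gm21887 (interaction 3.46, SE 0.749, edgeR adjusted p = 0.490).

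The genes of this paragraph were chosen after their values were seen, and all were called in the parental comparison. The immunoglobulin constant gene Ighg2c had no count in any of the 3 E4H mice and 3.36 to 6.68 CPM in E2H and E3H mice, and was at least 102-fold lower, taking 3 counts per library as the floor. In PE4H mice Ighg2c was at 0.453, 0.725, 0.146 and 2.63 CPM against 1.26 to 8.02 CPM, an overlap left by replicate 4 alone. Ms4a4a, a membrane protein of the CD20 family, likewise had no count in E4H mice against 0.143 to 0.248 CPM, at least 4.33-fold lower. In PE4H mice it was at 0.809, 0.577, 0.683 and 0.606 CPM, within the range of PE2H and PE3H mice (0.205 to 1.37 CPM), and its interaction passed (edgeR adjusted p = 0.0457). The interaction call was lost in 17 of 21 fits without 1 mouse. The parental Ms4a4a call was lost in limma with either offset (adjusted p = 1 and 0.157) and in edgeR on parental mice alone (adjusted p = 0.139). Gm20186, a long noncoding RNA, had at most 1 count in any E4H mouse and 0.601 to 1.56 CPM in E2H and E3H mice, at least 31.1-fold lower. Of the windows of Gm20186, 77.2% occur in other genes, and its call was lost in limma on log2(FPKM + 1) (adjusted p = 0.0585). Aim2, a cytosolic DNA sensor of the inflammasome, was at 3.72, 3.74 and 3.50 CPM in E4H mice against 1.23 to 2.73 CPM (log2 fold change 1.13, SE 0.211, edgeR adjusted p = 0.0291). That call was lost without any 1 of 8 of the 9 parental mice, with an adjusted p of up to 0.214 in edgeR. The Aim2 call was also lost in parental mice alone and in the mice with high Xist (edgeR adjusted p = 0.264 and 0.253), without a filter on low counts (edgeR adjusted p = 0.0574) and in limma on log2(FPKM + 0.1) (adjusted p = 0.0549).

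Some genes were high in only part of the PE4H mice. These and the other genes of this paragraph, too, were chosen after their values were seen. Gm6166, a processed pseudogene that shares 53.6% of its windows with Fabp5 and its copies, was at 0.566, 13.3, 10.4 and 12.3 CPM in PE4H replicates 1 to 4. It was at 0.271 to 0.837 CPM in PE2H and PE3H mice and at 0.268, 0.266 and 0.376 CPM in E4H mice (PS19 log2 fold change 4.19, SE 0.449, edgeR adjusted p = 4.23e-05, interaction 4.79, edgeR adjusted p = 0.0457). The interaction call of Gm6166 was lost in 18 of 21 fits without 1 mouse. Gm4735 and Eno1b, near copies of the glycolytic enzyme gene Eno1, shared that pattern. Gm4735 was at 43.3, 126, 122 and 127 CPM in PE4H replicates 1 to 4 against 40.2 to 60.3 CPM in PE2H and PE3H mice, and Eno1b at 52.1, 126, 121 and 126 CPM against 48.5 to 67.8 CPM. The PS19 log2 fold changes were 1.16 (edgeR adjusted p = 0.00379) for Gm4735 and 0.95 (edgeR adjusted p = 0.00568) for Eno1b, and both calls were lost without PE4H replicate 2 (edgeR adjusted p = 0.0528 and 0.0716) and in PS19 mice alone (edgeR adjusted p = 0.113 and 0.122). In all 3 genes PE4H replicate 1 was at the level of the other lines, and the windows shared with other genes made up 96.0% for Gm4735 and 85.2% for Eno1b. Gm6969, a pseudogene sharing 69.3% of its windows with Cox7a2l, divided the PE4H mice differently, with 20.9 and 24.2 CPM in replicates 1 and 2 and 0.667 and 0.560 CPM in replicates 3 and 4. In PE2H and PE3H mice Gm6969 was at 0.504 to 0.775 CPM (PS19 log2 fold change 4.29, SE 0.609, edgeR adjusted p = 0.00236). The Gm6969 call was lost in limma with either offset (adjusted p = 0.272 and 0.290) and in edgeR on PS19 mice alone (adjusted p = 0.0830). Abca7, a lipid transporter whose human gene is tied to risk of Alzheimer's disease, was lower in all 4 PE4H mice (13, 12.9, 13.2 and 11.3 CPM) than in any PE2H or PE3H mouse (15.2 to 21.2 CPM). Its log2 fold change was -0.49 in PS19 mice (SE 0.0884, edgeR adjusted p = 0.0252) and 0.07 in parental mice (SE 0.0993), with an interaction of -0.56 that did not pass (edgeR adjusted p = 0.573). Tifa, an adaptor of innate immune signalling, was at 19.1, 16.4, 16.6 and 16.6 CPM in PE4H mice against 8.77 to 15.6 CPM (PS19 log2 fold change 0.63, SE 0.122, edgeR adjusted p = 0.0427). Without any 1 of the 4 PE4H mice the Abca7 call was lost, with an adjusted p of up to 0.154 in edgeR, and it was lost in the mice with high Xist (log2 fold change -0.43, edgeR adjusted p = 0.472). The Abca7 call was also lost with Xist as a covariate (edgeR adjusted p = 0.0552), in PS19 mice alone (edgeR adjusted p = 0.188) and in limma on log2(FPKM + 1) (adjusted p = 0.0675).

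The gene lists of brain cell types and pathways are given by their medians. In 29 of 33 lists, with 554 genes tested, edgeR and limma called 0 genes and DESeq2 called 1, the pituitary gene Prl, while 47 had an unadjusted p under 0.05 in edgeR, as did 6.2% of all genes tested. With 0.123% of all genes called, no more than a call or so would be found among so many genes, so the absence of calls says little about the lists. The disease-associated microglia list (25 genes) had a median log2 fold change of 0.07, and its members ranged from -0.33 for Gpnmb to 0.27 for Cd9, chosen after their values were seen as its lowest and highest, against a median of -0.01 over all genes tested. Homeostatic microglia (15 genes) had a median of 0.07, homeostatic astrocytes (16) of 0.02 and neuronal and synaptic genes (26) of -0.04. Cholesterol synthesis (26) had a median of -0.05, receptors of APOE and lipid transport (37) of -0.01, lysosomal enzymes (32) of 0.04 and complement (20) of -0.01. Several medians had opposite signs by background: that of disease-associated microglia was -0.16 in parental and 0.21 in PS19 mice, that of immediate early genes -0.40 and 0.24, that of antigen presentation -0.26 and 0.11, and that of chemokines -0.21 and 0.14. Those of homeostatic microglia (-0.13 and 0.17), lysosomal enzymes (-0.11 and 0.13) and pan-reactive astrocytes (-0.21 and 0.13) did likewise. The other way went forebrain (0.02 and -0.12), neuronal and synaptic genes (0.00 and -0.08), and endothelium and pericytes (0.01 and -0.05). These lists were chosen after their medians were seen, and the change with background was not tested. Over both backgrounds, antigen presentation had a median of -0.05, type I interferon response 0.03, lipid droplets and fatty acid handling 0.01, chemokines and their receptors 0.01, and T and B cells -0.09. Oligodendrocyte precursors had a median of 0.07, endothelium and pericytes -0.04, forebrain -0.04, striatum 0.03, hypothalamic peptides -0.06, pituitary -0.08 and the sex-linked genes -0.08. The response lists had medians of -0.02 for immediate early genes, -0.08 for glucocorticoid and fasting, -0.03 for the circadian clock and 0.00 for heat shock. The lists with a call had medians of 0.07 for plaque-induced genes, 0.06 for pan-reactive astrocytes, 0.09 for the serpins and 0.13 for choroid plexus. None of these medians comes near a fold of 2, and the calls were those of Serpina3n, Serpina3m and Tmem72 given above.

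Apart from the lists of brain regions and of blood cells, those of myelin and meninges had the medians farthest from 0. All 21 tested genes of oligodendrocytes and myelin had positive log2 fold changes, the largest 0.36 for Ugt8a, which makes the galactolipids of myelin, with a median of 0.16. Of these, 8 reached an unadjusted p under 0.05, where 6.2% of all genes tested did, and none an adjusted one, with an edgeR adjusted p of 0.497 for Fa2h, the fatty acid hydroxylase of myelin lipids. The summed level of the list, led by Mbp, was 6605 to 11448 CPM in APOE4 mice and 6091 to 9054 CPM in the others, and its median was -0.01 in parental mice and 0.30 in PS19 mice. The 20 genes of meninges, fibroblasts and collagens had a median of -0.27, with 7 lower at an unadjusted p under 0.05, against 6.2% of all genes, among them Col6a1 at -0.43 (SE 0.131) and Col18a1 at -0.40 (SE 0.105). The list members named in this paragraph were chosen after their values were seen. No member of the meninges list passed in edgeR (adjusted p = 0.242 for Col18a1), DESeq2 or limma. The meninges median was -0.33 against APOE3 and -0.04 against APOE2, comparisons that share the same APOE4 mice, and the difference between them was not tested. The median of 10 genes of cerebellum and hindbrain was -0.42, with -0.11 against APOE3 and -0.68 against APOE2, and that of 9 blood cell genes -0.21, with -0.85 in parental and 0.17 in PS19 mice. Their part in the calls above was not tested.

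**Figure D5:**
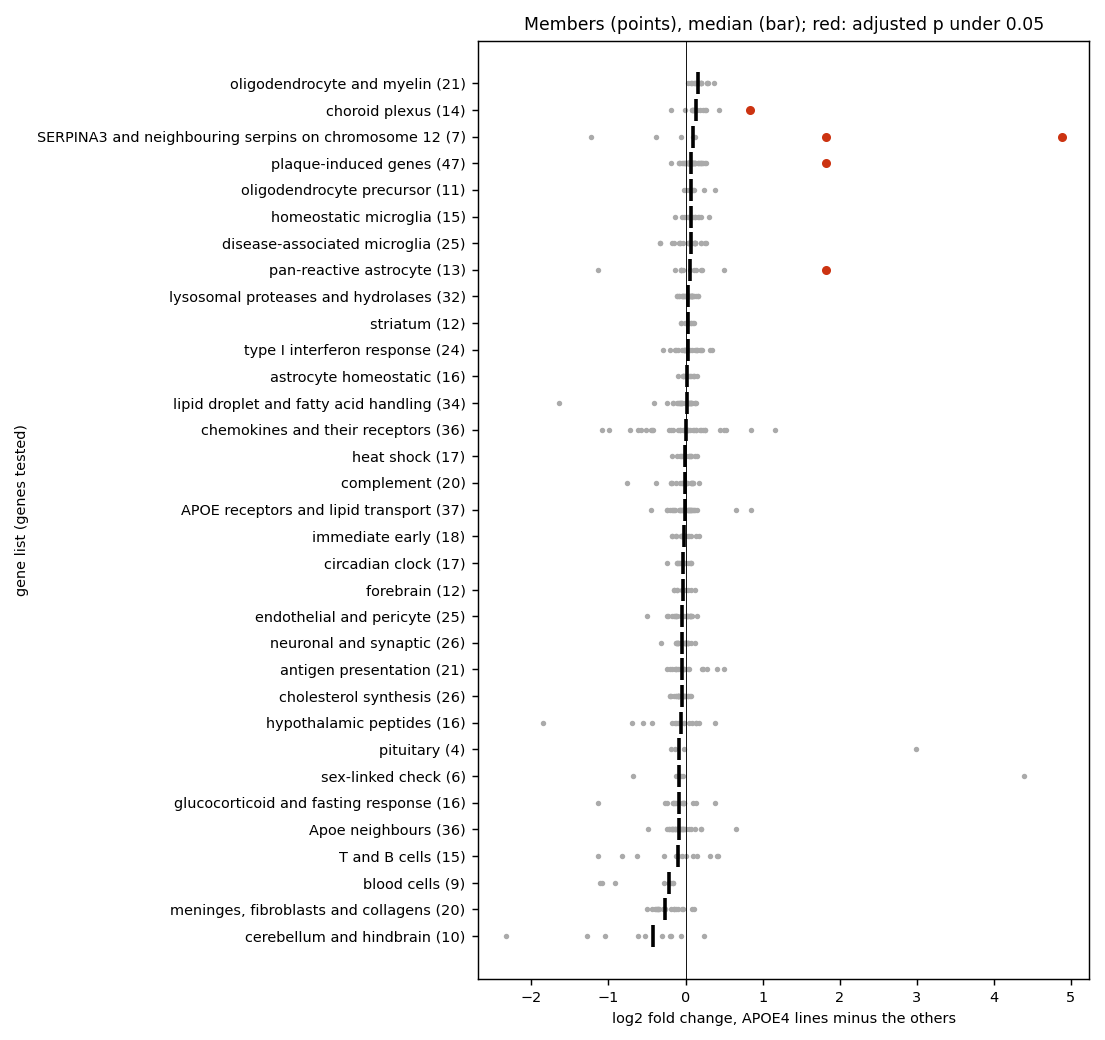
Log2 fold change (x axis, APOE4 lines minus the others) of the tested members of each gene list (points), with the list's median (black bar) and the number of genes tested in brackets. Members at an adjusted p under 0.05 are red: Serpina3n in 3 lists, Serpina3m in 1 and Tmem72 in 1.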

How the data were processed

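Forebrain RNA of 21 mice was sequenced by the authors after poly(A) selection with a stranded kit. Per the labels, the authors trimmed reads with cutadapt, aligned them with HISAT2 to GRCm38.p5 and assembled and quantified with StringTie, versions not given. The deposited table of counts per gene was used for the tests, and the deposited table of FPKM, as the authors computed it, for alternatives. How the authors took gene counts from StringTie, and whether they used strand, is not stated. The tables hold 55401 genes, of which 55141 were named by GENCODE M21. Total counts were 59265459 to 75932183 per mouse.

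Counts were filtered with filterByExpr (at least 10 counts, 15 in total), scaled by TMM and fitted with edgeR 4.0.16 (R 4.3.3) in a quasi-likelihood model of APOE4 and tau transgene, with further fits of 4 group means and of 3 APOE lines. A gene counts as called when its p, adjusted by Benjamini and Hochberg, is under 0.05, with a fold change of at least 2 and without that limit. Alternatives were DESeq2 1.42.0, limma 3.58.1 on log2 FPKM, other filters, scalings and covariates, and leaving out each mouse. Python 3.11.15 with pandas 2.3.3, NumPy 2.4.6 and matplotlib 3.10.9 made tables and figures. The fits were tested on simulated data. Promoters were matched by symbol in RefSeq (GRCm38.p6) for 3 of 4 genes looked up, Serpina3m being the fourth.

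The genes named by rule are those called in the pooled comparison with a fold change of at least 2, up to 15 in each direction by smallest adjusted p. To these were added every list member at an adjusted p under 0.05, and Apoe, Serpina3n, Mapt, Xist and Ddx3y. Any other gene given with values is marked in the text as picked once its values had been looked at, apart from Gabra6, Prl, Ttr and Gfap. The members and lists were chosen with earlier results of these data known.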

Additional observations from a re-analysis of the deposited data

Results flagged for a closer look

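In the PS19 groups of 4 mice, 96 combinations of gene and group were examined, and in 8 of them a mouse was flagged as far from the other 3 of its group. Chance flags about 1 in 20 groups. In PE4H mice these were replicate 4 for Gm13601 (0.140 CPM) and replicate 4 for Gm15726 (0 CPM). The Gm15726 flag carries no weight, since the other 3 PE4H mice had 2 counts each, under the floor of 3 counts per library. In PE3H mice they were replicate 1 for Alkbh6 (26.5 CPM) and replicate 2 for Arhgap33os (0.0638 CPM) and Crb1 (1.39 CPM). In PE2H mice they were replicate 1 for Ttc39a (5.25 CPM) and Pcyox1 (137 CPM), and replicate 2 for Ddx3y (43 CPM), the mouse of that group with low Xist. For 2 genes the APOE4 difference changed with the tau transgene by edgeR's test of the interaction: Gm6166 (log2 4.79) and Ms4a4a (log2 6.57, from a parental group with no count, so its size is not fixed). Of 21 fits without 1 mouse, the Gm6166 call was lost in 18 and the Ms4a4a call in 17. Why these mice and genes stand apart was not tested.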

How the results depend on the processing

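No called result that was refitted under the alternatives changed its direction. The alternatives were run for the counts of calls, the 26 genes of the pooled comparison and the genes named with a lost or kept call, not for Tifa, Eps8l1 or the other genes called against a single line. Of the results not called, only Xist changed sign, from a log2 of -0.68 to 0.06 in the mice with high Xist, a subset picked by its level. In edgeR with the replicate block the calls of Gm6969 and Abca7 in PS19 mice were lost (adjusted p = 0.0565 for each), as were those of Tmem72, Col22a1 and Pon2 in the pooled comparison (adjusted p = 0.0859, 0.0737 and 0.108). With a fold of at least 2, APOE4 against both other lines pooled gave 15 calls, and 28 in DESeq2, 6 in limma on log2(FPKM + 1), 43 with 3 lines in the design and 15 to 17 without 1 mouse. Without a fold limit, its 26 calls became 65 in DESeq2, 68 with 3 lines, 15 in the mice with high Xist and 23 to 30 without 1 mouse. The parental comparison gave 14 calls, 6 in limma on log2(FPKM + 1) and 10 to 15 without 1 mouse, and without a fold limit 16, 35 in DESeq2 and 10 to 18 without 1 mouse. The PS19 comparison gave 16 calls, 37 in DESeq2, 8 without a filter, 9 at 1 CPM in 7 mice, 8 in limma on log2(FPKM + 1), 8 with the replicate block, 3 in PS19 mice alone and 5 to 17 without 1 mouse. Without a fold limit its 25 calls became 81 in DESeq2, 11 without a filter, 16 at 1 CPM in 7 mice, 9 with the replicate block, 13 with Xist as a covariate, 3 in PS19 mice alone, 12 in the mice with high Xist and 5 to 33 without 1 mouse. The 2 interaction calls became 10 in DESeq2, 5 in the mice with high Xist and 0 to 7 without 1 mouse. They became 0 without a filter, at 1 CPM in 7 mice, in limma with either offset, with the replicate block, with Xist as a covariate and with robust dispersion. Against APOE3, 17 calls became 28 in DESeq2, 8 in limma on log2(FPKM + 1) and 16 to 20 without 1 mouse, and without a fold limit 28 became 66 in DESeq2 and 20 to 34 without 1 mouse. Against APOE2, 59 became 19 in limma on log2(FPKM + 1) and 52 to 95 without 1 mouse, and without a fold limit 160 became 624 in DESeq2, 80 in the mice of those lines alone, 84 in the mice with high Xist and 103 to 932 without 1 mouse. The cause was not tested, and the mice with high Xist were chosen after seeing the data.

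Replicate numbers were checked as possible pairs: over 45 pairs of mice sharing a number the correlation was -0.135 to 0.133 (median -0.019), with 2 over 0.1, so the numbers do not pair the mice. With the replicate block the pooled comparison gave 16 calls, and 24 without a fold limit, of which 23 were among the 26. With Xist as a covariate it gave 16 calls, all 15 among them, and 28 without a fold limit, of which 24 were among the 26.

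The comparison rests on 7 APOE4 mice, of which 3 differ from most others in their sex-linked RNAs, and sex cannot be separated fully from APOE4. The tau transgene goes with age, paralysis and strain background. Whole forebrain mixes cell types. Genes with near copies share reads, and for RNAs with a few counts per library the fold change is poorly fixed. Alleles of the mouse genome were not read, so whether differences on chromosomes 6, 7 and 12 come from strain segments carried with a line was not tested. A p that misses the threshold does not show that levels are equal.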
